A study of Oryza sativa with 12 samples.

Results

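A total of 186 rice genes had at most 3 counts in each wild type embryo library and at least 10 counts in each *Oslec1-1* embryo library, out of 38978 genes in the count table and 32693 with a count in any library. The genes were chosen by these limits on the measured counts. The difference between the genotypes is therefore the rule and not a finding, and it is described below without a test. The 4 groups of embryos had 3 replicates each: *Oslec1-1* at 25 days after pollination (DAP), called the late stage (LE), *Oslec1-1* at 7 DAP, called the early stage (EE), and the wild type Nipponbare (NIP) at LE and at EE. *Oslec1-1* is a single CRISPR/Cas9 line with a frameshift in *OsLEC1*, in the Nipponbare background. About 30 embryos were collected from plants kept at 24 °C at night in a cycle of 16 h light and 8 h dark. The polyadenylated RNA of whole embryos was sequenced, so that fewer cells of a type and less RNA per cell cannot be told apart. Library totals lay between 16113922 and 27213238 counts. A gene without counts may still have a level of up to 3 counts, or 0.110 to 0.186 CPM (counts per 1 000 000) of the unscaled library totals. In CPM scaled by the TMM method, used below, the limit is higher for NIP at EE, whose scaling factors were 0.685 to 0.745. These limits and the intervals below cover counting error only. The LE and EE libraries carry different library codes, and the labels do not say what these stand for. Age and any batch behind the codes cannot be told apart, while both genotypes share a code within each stage.

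*LEC1* encodes the B subunit of an NF-Y transcription factor and is known in Arabidopsis as a master regulator of embryo maturation, the phase in which embryos store reserves and become tolerant to drying. Cereal embryos are normally pale, and the proteins that harvest light belong to green tissue of the seedling and leaf. Among the 186 genes, 29 carry a term of the Gene Ontology (GO) in the study's lists of genes upregulated at EE. The lists name light harvesting, photosynthesis, peroxidase, chitinase, monooxygenase and enzyme inhibitor activity. Some are shortened in the copy used here, so more of the 186 may carry these terms. The remaining genes are known here by their identifier and position only. *OsLEC1* itself, and marker genes of the embryo or of other tissues, were not analysed here, since no annotation used here pairs their symbols with the identifiers of the files.

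In *Oslec1-1*, 89 genes had a lowest count under 20, the median of the lowest counts was 21.5, and 24 genes had at least 100 counts in every library. In NIP, the 186 genes were close to the floor of the measurement. Of their 1116 values in the 6 NIP libraries, 773 were 0 (69.3%), 159 were 1, 118 were 2 and 66 were 3. The genes spread evenly over the permitted range, with 47 genes at 0 in all 6 NIP libraries, and 44, 48 and 47 genes with a highest NIP count of 1, 2 and 3. A single NIP library had between 115 and 127 of the genes at 0 at LE and between 128 and 139 at EE.

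Summed over the 186 genes, the *Oslec1-1* libraries held 32564, 25082 and 26991 counts at LE and 28442, 22032 and 32818 at EE, against 102, 114 and 125 counts in NIP at LE and 79, 95 and 78 in NIP at EE. In CPM, scaled by the TMM method, the sum was 1009 ± 40.8 in *Oslec1-1* and 4.94 ± 0.661 in NIP at LE (SD, n = 3 each). At EE it was 1260 ± 189 in *Oslec1-1* and 6.63 ± 1.36 in NIP (SD, n = 3 each). All 6 *Oslec1-1* libraries lay above all 6 NIP libraries, as the rule requires. The genes took 0.116% ± 0.00525 of the counts of an *Oslec1-1* library at LE and 0.145% ± 0.0259 at EE (SD, n = 3 each), and the 3 LE libraries lay below the 3 EE libraries in summed CPM.

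**Figure D1:**
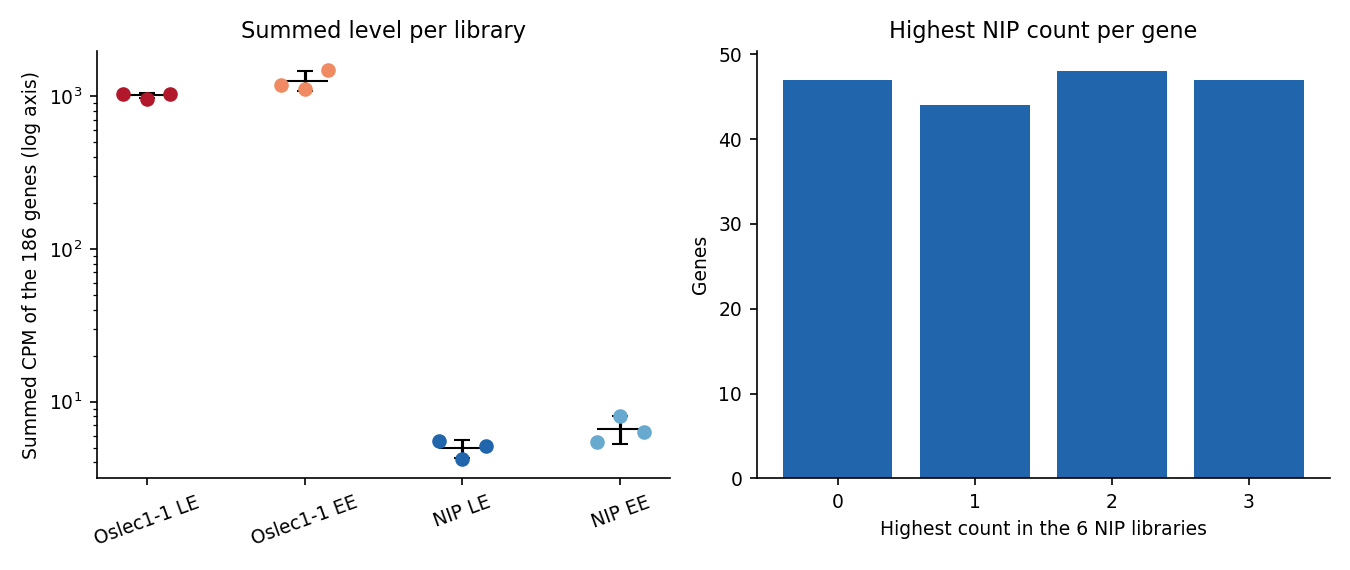
Left, summed CPM of the 186 genes in each library on a log axis, with points for libraries and bars for mean and SD (n = 3): the *Oslec1-1* libraries sit between 962 and 1475 CPM, the NIP libraries between 4.22 and 8.11 CPM. Right, number of genes by their highest count in the 6 NIP libraries, which is 47, 44, 48 and 47 genes at 0, 1, 2 and 3 counts.

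Genes just inside and just outside the limits differed by a single count. Os01g0720500 met the NIP limit at 2, 2 and 2 counts at LE and 3, 2 and 3 at EE, whereas Os11g0275200 missed it through 4 counts in 1 NIP library at EE with 0 in the other 5. Os03g0706500 met the *Oslec1-1* limit with a lowest count of 10, and Os03g0251000, with 0 counts in every NIP library, missed it with a lowest count of 9. In all, 59 genes missed the NIP limit by 1 count and 23 genes missed the *Oslec1-1* limit by 1 count. The opposite rule, with NIP and *Oslec1-1* exchanged, found 2 genes, Os02g0779650 and Os08g0214233. Os08g0214233 had 0, 0 and 0 counts in *Oslec1-1* and 15, 40 and 25 in NIP at LE, and 1, 0 and 0 in *Oslec1-1* and 242, 221 and 148 in NIP at EE. The rule itself drew on 21707 genes with at least 10 counts in each *Oslec1-1* library and 12233 with at most 3 in each NIP library. The opposite rule drew on 10250 genes with at most 3 counts in each *Oslec1-1* library and 19024 with at least 10 in each NIP library.

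The 186 genes differed widely in level. Their mean CPM in *Oslec1-1* ran between 0.393 and 87.2 at LE, with a median of 1.70, and between 0.534 and 164 at EE, with a median of 2.07. Per length, the median was 2.03 FPKM at LE and 2.13 FPKM at EE, which is percentile 40.2 and 40.8 of all genes with an FPKM above 0, and 21 genes at LE and 29 at EE exceeded 10 FPKM. A few genes carried a large share of the signal: the top 10 held 44.8% of the summed CPM at LE and 48.0% at EE, and 10 genes were among the top 20 at both stages. The 47 genes at 0 in all NIP libraries were as abundant in *Oslec1-1* as the rest, with a median of 2.41 CPM in both sets, but only 2 of them, Os04g0188433 and Os10g0191300, were among the 23 genes above 10 CPM.

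The most abundant gene over the 6 *Oslec1-1* libraries was Os08g0136800 (IRGSP-1.0, chromosome 8, 2066433 to 2067718, plus strand). It had 67, 76 and 102 counts in *Oslec1-1* and 1, 1 and 3 in NIP at LE, and 3079, 3799 and 3788 counts in *Oslec1-1* and 0, 0 and 0 in NIP at EE. Its level in *Oslec1-1* at EE was at least 2079-fold higher than in NIP, set against a floor of 3 counts over the group. At LE the ratio was 41.0 (95% counting interval, 17.3 to 127). Its signal in *Oslec1-1* was thus concentrated at EE, where all 3 libraries exceeded the 3 LE libraries by far.

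Os07g0162450 (chromosome 7, 3339394 to 3340629) was high at both stages, with 2357, 2034 and 2849 counts in *Oslec1-1* and 2, 3 and 1 in NIP at LE, and 2152, 513 and 1610 in *Oslec1-1* and 0, 0 and 0 in NIP at EE. Os09g0537700 (chromosome 9, 21155963 to 21157945) leaned to LE, with 3584, 1821 and 1915 counts in *Oslec1-1* and 0, 0 and 0 in NIP at LE, and 465, 269 and 726 in *Oslec1-1* and 0, 1 and 0 in NIP at EE. Its level at LE was at least 2042-fold higher in *Oslec1-1* than in NIP. The stages overlapped for Os07g0162450, while every LE library lay above every EE library for Os09g0537700.

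Os10g0552700 (chromosome 10, 21693876 to 21694502) had 132, 121 and 135 counts in *Oslec1-1* and 0, 0 and 0 in NIP at LE, and 2458, 1962 and 2809 in *Oslec1-1* and 2, 0 and 1 in NIP at EE. Os05g0217800 (chromosome 5, 7255510 to 7257163) went the other way, with 1500, 1146 and 1259 counts in *Oslec1-1* and 1, 0 and 1 in NIP at LE, and 96, 90 and 85 in *Oslec1-1* and 0, 0 and 0 in NIP at EE. Os01g0740300 (chromosome 1, 30909430 to 30916476) had 578, 700 and 642 counts in *Oslec1-1* and 1, 3 and 1 in NIP at LE, and 812, 439 and 982 in *Oslec1-1* and 2, 0 and 0 in NIP at EE. The last of these overlapped between the stages. No GO list used here names these 6 genes.

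**Figure D2:**
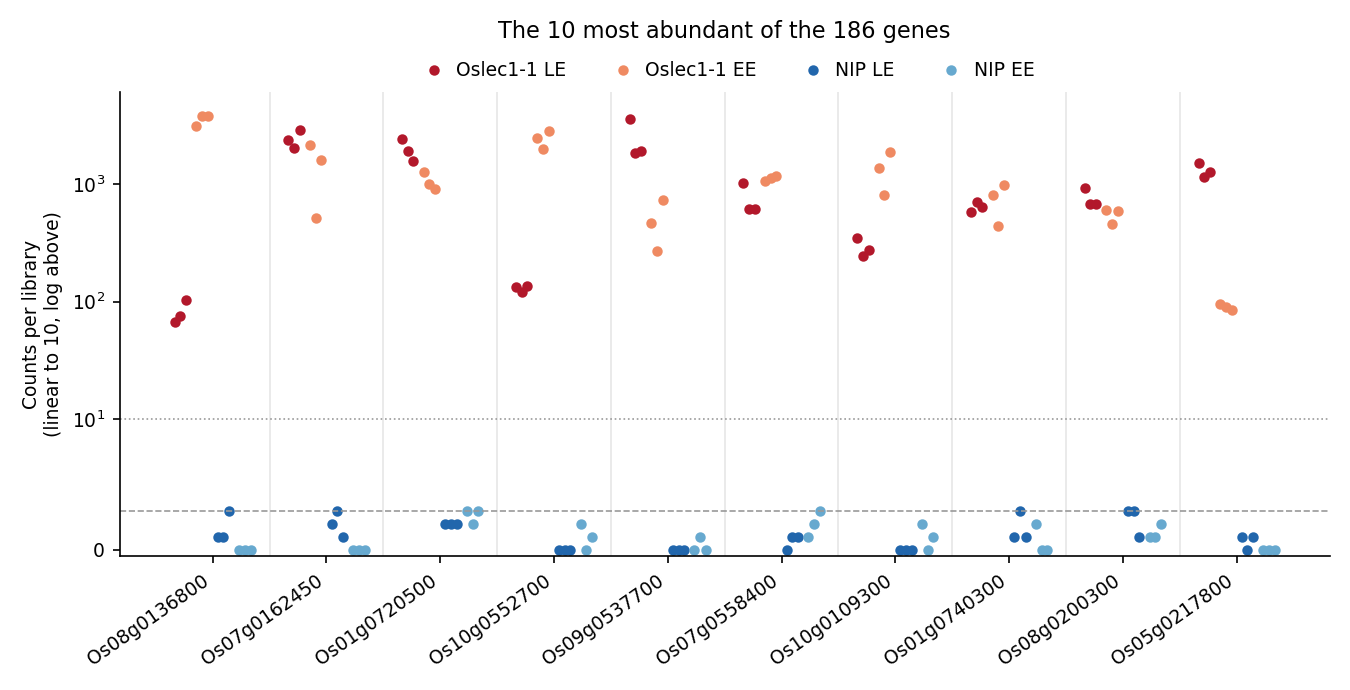
Counts per library of the 10 most abundant genes, ordered by mean CPM over the *Oslec1-1* libraries, on an axis that is linear to 10 and logarithmic above. Points are libraries (3 per group), and the dashed and dotted lines mark the limits of 3 counts for NIP and 10 counts for *Oslec1-1*; Os08g0136800 and Os10g0552700 stand higher at EE, Os05g0217800 and Os09g0537700 at LE.

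Photosynthesis was the best represented annotated function among the most abundant genes. Light-harvesting proteins bind chlorophyll and pass the absorbed energy to the photosystems. The study's GO list names 17 genes with this function among those upregulated at EE, which need not be the whole family. Of these, 4 were among the 186: Os01g0720500, Os07g0558400, Os05g0401100 and Os09g0439500. Os01g0720500 (chromosome 1, 30030998 to 30032054) had 2391, 1908 and 1560 counts in *Oslec1-1* and 2, 2 and 2 in NIP at LE, and 1253, 997 and 897 in *Oslec1-1* and 3, 2 and 3 in NIP at EE. Os07g0558400 (chromosome 7, 22316343 to 22317935) had 1026, 617 and 610 counts in *Oslec1-1* and 0, 1 and 1 in NIP at LE, and 1065, 1125 and 1172 in *Oslec1-1* and 1, 2 and 3 in NIP at EE. Both were thus strongly represented in *Oslec1-1* embryos of either age, and the lowest *Oslec1-1* count of Os01g0720500, 897, was the highest such minimum of all 186 genes. Os05g0401100 and Os09g0439500 were less abundant, with 124 to 202 and 79 to 159 counts at LE, and 122 to 167 and 58 to 96 counts at EE in *Oslec1-1*.

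A further 2 genes, Os08g0200300 and Os12g0420400, are named by the shortened copy of the list for the term photosynthesis. Os08g0200300 had 919, 679 and 676 counts in *Oslec1-1* and 3, 3 and 1 in NIP at LE, and 596, 452 and 588 in *Oslec1-1* and 1, 1 and 2 in NIP at EE. Os12g0420400 had 819, 559 and 549 counts in *Oslec1-1* and 2, 0 and 0 in NIP at LE, and 659, 416 and 618 in *Oslec1-1* and 3, 3 and 3 in NIP at EE. In *Oslec1-1*, the 6 photosynthesis genes together reached 155 CPM at LE and 160 CPM at EE, and none passed both limits of the comparison between the stages described below.

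The light-harvesting genes of the study's list outside the 186 had more than 3 counts in at least 1 NIP library or fell short in *Oslec1-1*. In the quasi-likelihood test of edgeR (adjusted p under 0.05 and absolute log2 fold change of at least 2), 13 of these 13 were higher in *Oslec1-1* than in NIP at EE, where 10.9% of all tested genes were called higher. The study chose the list among genes upregulated at EE in these samples, so that count is not independent evidence. The count at LE is for the same chosen genes and genotypes, so it is not independent of the choice either. At LE, 11 of the 13 were called higher and 0 lower, with a median log2 fold change of 4.03, against 8.29% of all tested genes called higher and a median of 0.02 over genes that are neither among the 186 nor beside them. Between LE and EE in *Oslec1-1*, edgeR and DESeq2 each called 0 of the 13 and 0 of the 4 among the 186. With both limits, edgeR called 6.2% of all tested genes higher and 4.94% lower at LE. At an edgeR adjusted p under 0.05 with no limit on the fold change, 5 of the 13 were higher and 5 lower at LE. Of the 4, 1 was higher and 1 lower, against 30.0% and 29.1% of all tested genes. The log2 fold changes of the 13 lay between -0.80 and 1.72, short of the limit of 2.

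Chitinases cut the chitin of fungal cell walls. The study's list names 26 such genes among those upregulated at EE, which need not be the whole family, with Os04g0493400 and Os04g0494100 among the 186. These were chosen for naming after their values were seen. Os04g0493400 had 1054, 448 and 723 counts in *Oslec1-1* and 0, 0 and 0 in NIP at LE, and 160, 69 and 277 in *Oslec1-1* and 2, 1 and 0 in NIP at EE. Os04g0494100 had 172, 66 and 62 counts at LE and 51, 14 and 61 at EE in *Oslec1-1*, and 0 in every NIP library. They lie 19503 bp apart on chromosome 4 with 1 gene between them. Of the other 24 chitinase genes, 13 of the 21 tested were higher in *Oslec1-1* at LE, with a median log2 fold change of 2.61. At EE, where the list was chosen, 21 of 21 were higher, and the count at LE is not independent of that choice. Within *Oslec1-1*, 5 of the 24 were higher and 11 were lower at LE than at EE, against 6.2% and 4.94% of all tested genes, with the same limit that the list was chosen at EE.

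Peroxidases reduce hydrogen peroxide while oxidising other molecules. Os10g0109300 (chromosome 10, 655625 to 658866) had 348, 243 and 276 counts in *Oslec1-1* and 0, 0 and 0 in NIP at LE, and 1357, 812 and 1865 in *Oslec1-1* and 2, 0 and 1 in NIP at EE. Os01g0378100 had 49, 38 and 65 counts at LE and 143, 76 and 128 at EE in *Oslec1-1*, with 0 in every NIP library. Both stood higher at EE without overlap. The list for the term nutrient reservoir activity names Os09g0568500, and what its protein does was not examined. It had 155, 170 and 95 counts at LE and 326, 176 and 289 at EE in *Oslec1-1* and 0 in every NIP library. Among the 29 other identifiers of that list in the shortened copy used here, 27 were lower at LE than at EE in *Oslec1-1*, against 4.94% of all tested genes. All 29 were called higher in *Oslec1-1* than in NIP at EE, where the list was chosen, so the count lower at LE is not independent of that choice. Os09g0568500 was not called (log2 fold change -1.25 ± 0.24 SE, edgeR adjusted p = 0.00223). Os09g0568500 was also chosen for naming after its values were seen, as was Os01g0378100.

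Monooxygenases add 1 atom of molecular oxygen to their substrate. This term is carried by 4 genes: Os12g0291100, Os12g0292400, Os04g0570500 and Os03g0850200. Os12g0291100 had 364, 250 and 279 counts in *Oslec1-1* and 0, 1 and 3 in NIP at LE, and 287, 125 and 304 in *Oslec1-1* and 0, 0 and 1 in NIP at EE. Os12g0292400, 56772 bp away on chromosome 12, had 171, 152 and 141 counts in *Oslec1-1* and 0, 3 and 0 in NIP at LE, and 336, 209 and 312 in *Oslec1-1* and 2, 0 and 1 in NIP at EE. Os04g0570500 had 390, 352 and 380 counts at LE and 33, 37 and 64 at EE in *Oslec1-1*, with 0 in every NIP library. The 4 genes took different courses, with Os04g0570500 higher at LE and Os12g0291100 overlapping between the stages. Os03g0850200 was less abundant, with 74 to 94 counts at LE and 24 to 53 at EE in *Oslec1-1*. Os11g0489250, Os04g0128001 and Os06g0528700, which carry related oxidoreductase terms, had between 11 and 76 counts in the *Oslec1-1* libraries and 0 to 2 in those of NIP.

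Os01g0788400, Os03g0399000 and Os01g0123900 carry the term enzyme inhibitor activity. Os01g0788400 and Os03g0399000 also carry the term polysaccharide catabolic process, so the inhibitor term need not give their main function. Os01g0123900, which carries the term for serine endopeptidase inhibitors, proteins that block protein-cutting enzymes, had 33, 29 and 22 counts at LE and 28, 28 and 17 at EE in *Oslec1-1* and 0 in every NIP library. It did not pass the test between the stages (log2 fold change -0.16 ± 0.31 SE, edgeR adjusted p = 0.678). Of the 15 other inhibitors of that list that were tested, 9 were lower and 1 was higher at LE, against 4.94% and 6.2% of all tested genes. This list, too, was chosen on higher values in *Oslec1-1* at EE, which bears on the comparison of LE with EE. Os01g0788400, also annotated to cell wall organization, had 12, 12 and 17 counts at LE and 79, 87 and 116 at EE in *Oslec1-1*, with 1 count in 1 NIP library.

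The comparison of LE with EE within *Oslec1-1* uses a contrast that the rule did not, although the floor of 10 counts in every *Oslec1-1* library keeps out genes that fell silent at either age. All 186 genes entered the edgeR test, on the 6 *Oslec1-1* libraries with 24491 genes. In all, 10 genes, 5.38% of the 186, were higher at LE, against 6.2% of all tested genes, and 20 genes, 10.8%, were lower at LE, against 4.94% of all tested genes. Among the 21521 other genes that also had at least 10 counts in each *Oslec1-1* library, 3.62% were higher and 3.05% lower. The median log2 fold change was -0.21 for the 186 genes and 0.00 for all tested genes. The median absolute value was 0.76 against 0.48 for those 21521 genes, which were not matched for count level. Counting error widens such values at low counts. At an adjusted p under 0.05 with no limit on the fold change, 37 of the 186 were higher and 53 lower, with a background of 30.0% and 29.1%. In CPM, the LE libraries all lay above the EE libraries for 39 genes (background 34.3%) and all below for 62 genes (background 32.5%), and overlapped for 85.

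The genes lower at LE were led by Os08g0136800, with a log2 fold change of -5.80 ± 0.24 (SE, edgeR adjusted p = 8.58e-07). Os08g0136700, close by, had 11, 12 and 13 counts at LE and 259, 243 and 315 at EE in *Oslec1-1* and 0 in every NIP library, a log2 fold change of -4.84 ± 0.21 (edgeR adjusted p = 1.06e-06). Os02g0210100 had 15, 27 and 10 counts at LE and 347, 371 and 357 at EE (log2 fold change -4.72 ± 0.29). Os08g0136700 and Os02g0210100 thus lay close to the limit of 10 counts at LE. Os10g0552700 (-4.57 ± 0.14), Os03g0277700 (-4.25 ± 0.38) and Os04g0188433 (-4.09 ± 0.39) followed. Os04g0188433 had 69, 42 and 14 counts at LE and 802, 409 and 458 at EE, with 0 in every NIP library, and was the most abundant gene of the 47 without any NIP count. The peroxidase gene Os10g0109300 (-2.57 ± 0.24) and Os01g0788400 (-3.12 ± 0.30) were also lower at LE.

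The genes higher at LE were led by Os11g0249000 (chromosome 11, 8072537 to 8078086), with 295, 413 and 682 counts at LE and 14, 26 and 36 at EE in *Oslec1-1*, a log2 fold change of 3.86 ± 0.46 (SE, edgeR adjusted p = 0.000154). Os04g0515900 had 676, 811 and 829 counts at LE and 53, 36 and 69 at EE (3.54 ± 0.23, adjusted p = 5.91e-06). The log2 fold change of Os05g0217800 was 3.49 ± 0.10. The monooxygenase gene Os04g0570500 (2.71 ± 0.24), Os10g0191300 (2.63 ± 0.61) and Os01g0359600 (2.49 ± 0.24) came next. Os10g0191300 had 352, 303 and 785 counts at LE and 29, 28 and 129 at EE and 0 in every NIP library, so 1 library of each stage stood well above the other 2. Of the 29 genes with a GO term, 1 was higher and 4 were lower at LE, and of the 47 genes without NIP counts, 3 were higher and 6 lower, against 6.2% and 4.94% of all tested genes. The GO terms come from lists chosen at EE.

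**Figure D3:**
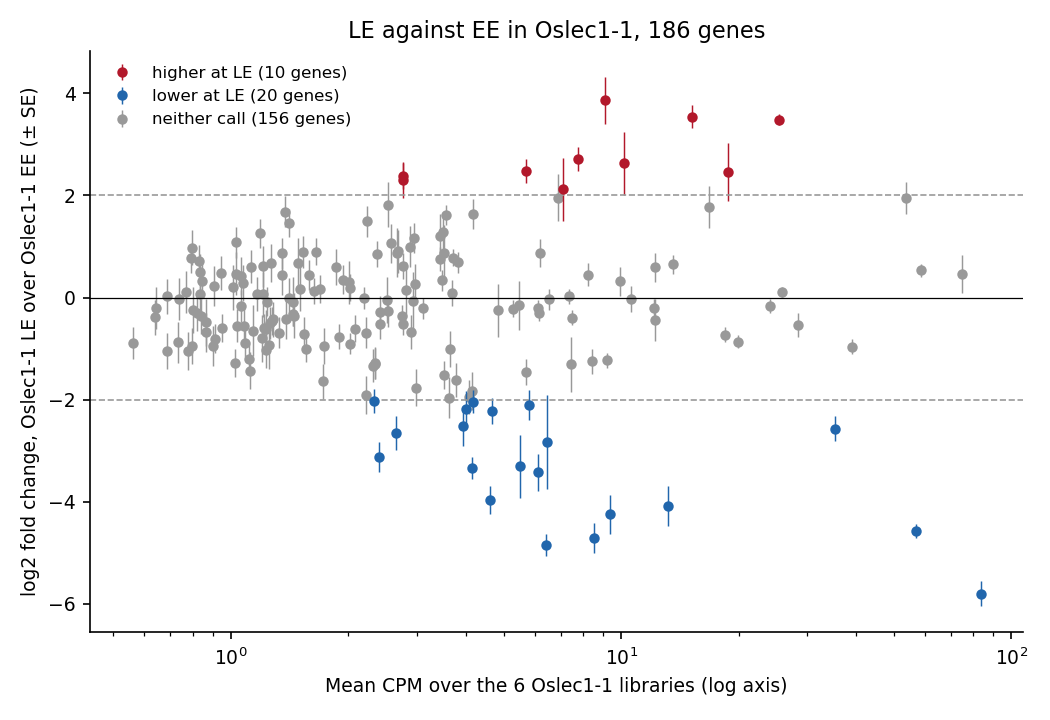
Log2 fold change of LE over EE in *Oslec1-1* for each of the 186 genes, with its standard error, against mean CPM on a log axis. Dashed lines mark a log2 fold change of 2 in either direction; 10 genes are called higher at LE and 20 lower, and the values run between -5.80 and 3.86.

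When each library was left out in turn, 23 of the 30 called genes kept their call throughout and 7 lost it at least once. Os10g0452100, with 37, 78 and 18 counts at LE and 78, 60 and 614 at EE, fell short without *Oslec1-1* EE replicate 3 (log2 fold change -0.98, edgeR adjusted p = 0.170) and also lost its call without LE replicate 1 (-2.63, adjusted p = 0.0705) or LE replicate 3 (-2.47, adjusted p = 0.0866). Os06g0517700 lost its call without EE replicate 1 (1.76), EE replicate 2 (1.69) or LE replicate 1 (1.91), with adjusted p of 0.0513, 0.0368 and 0.0374. In the other direction, Os09g0537700 stood at 1.95 ± 0.31 and passed the limit without EE replicate 3 (2.35), LE replicate 2 (2.08) or LE replicate 3 (2.06). The replicates scattered more for the 186 genes than for all genes with at least 10 counts in each *Oslec1-1* library. The median coefficient of variation was 20% against 9.53% at LE and 28.0% against 11.1% at EE. These sets were not matched for count level. The median count of the 186 was 31 to 61.5 in an *Oslec1-1* library, where counting error adds to the scatter. *Oslec1-1* EE replicate 2 had the lowest value of its group for 48.9% of the 186 genes, against 33.2% of all genes with at least 10 counts, and EE replicate 3 had it for 16.7% against 31.6%. The part of these libraries in the differences between the stages was not tested beyond leaving them out.

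Of the 186 genes, 2 have identifiers that begin with ENSRNA, and both carry the name MIR1428, a microRNA gene family of rice. Which of the other genes code for proteins was not examined. The libraries were made from polyadenylated RNA, which holds transcripts that cover a microRNA locus and not mature microRNAs. ENSRNA049472788 (IRGSP-1.0, chromosome 1, 13160777 to 13160900, plus strand) had 452, 467 and 466 counts in *Oslec1-1* and 1, 0 and 0 in NIP at LE, and 276, 151 and 273 in *Oslec1-1* and 0, 0 and 0 in NIP at EE. ENSRNA049472543 (chromosome 5, 18947050 to 18947173, minus strand) had 84, 157 and 152 counts at LE and 59, 17 and 63 at EE in *Oslec1-1*, and 0 in every NIP library. Both were thus present in *Oslec1-1* embryos of both ages. Their log2 fold changes of LE over EE were 0.65 ± 0.18 (SE, edgeR adjusted p = 0.0144) and 1.20 ± 0.44 (adjusted p = 0.0421), below the limit of 2.

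The files name 13 loci MIR1428, and these differed sharply from each other. ENSRNA049467742 (chromosome 7, 5451322 to 5451445) missed the rule through NIP at LE alone: it had 894, 1183 and 941 counts in *Oslec1-1* and 8, 14 and 17 in NIP at LE, and 707, 597 and 210 in *Oslec1-1* and 0, 0 and 0 in NIP at EE. Its log2 fold change of *Oslec1-1* over NIP at LE was 6.05 ± 0.25 (SE). ENSRNA049472287 (chromosome 2, 2535029 to 2535152) ran in the opposite direction, with 2, 1 and 0 counts in *Oslec1-1* and 168, 307 and 314 in NIP at LE, and 0, 1 and 0 in *Oslec1-1* and 0, 0 and 0 in NIP at EE. Its log2 fold change at LE was -8.07 ± 0.39 (SE). So 1 locus of the family was abundant only in NIP at LE, while 3 were abundant in *Oslec1-1* at both stages. ENSRNA049473244 had counts in every library, 12 to 23 in *Oslec1-1* and 8 to 21 in NIP at LE and 15 to 25 in *Oslec1-1* and 6 to 11 in NIP at EE, and the remaining 8 loci had at most 12 counts over all 12 libraries. The loci span 123 to 128 bp, and how the authors' counting treated reads shared by near-identical copies is not given in the sources used here, so the split between copies is uncertain.

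**Figure D4:**
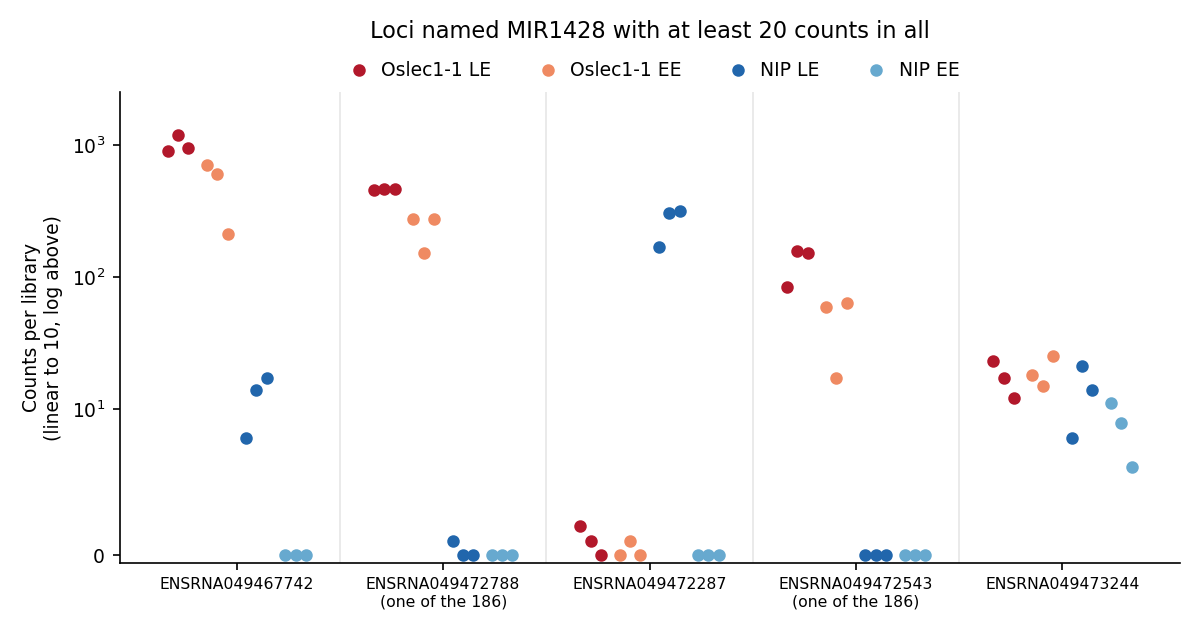
Counts per library at the 5 loci named MIR1428 with at least 20 counts in all, on an axis that is linear to 10 and logarithmic above (points are libraries, 3 per group). ENSRNA049467742, ENSRNA049472788 and ENSRNA049472543 are high in *Oslec1-1*, and ENSRNA049472287 is high in NIP at LE, with 168 to 314 counts.

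The genes lay on all 12 nuclear chromosomes. Relative to the genes tested in *Oslec1-1*, they were most frequent on chromosomes 10 and 12, with 14.3 and 13.2 per 1000 tested genes, and least frequent on chromosome 2, with 3.17 per 1000. They were shorter than other tested genes, with a median span of 1775 bp against 2959 bp, which includes introns. Most stood alone: 155 had no other of the 186 within 100 kb, and the other 31 formed 14 pairs and 1 group of 3. The group of 3 lay on chromosome 1, with Os01g0356951 (84, 83 and 78 counts at LE and 26, 109 and 31 at EE in *Oslec1-1*), Os01g0357400 (148, 136 and 80 at LE and 60, 46 and 63 at EE) and Os01g0358100 (25, 24 and 48 at LE and 164, 84 and 199 at EE). Of these, Os01g0358100 was lower at LE (log2 fold change -2.52 ± 0.38 SE, edgeR adjusted p = 0.000551) while the others were not called, so the 3 genes did not share a call.

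In 2 pairs both genes were lower at LE. One is Os08g0136700 and Os08g0136800, 1691 bp apart on opposite strands of chromosome 8. The 2 annotated genes that come between them in order are not separate from the pair. Os08g0136725 overlaps Os08g0136700 and Os08g0136750 overlaps Os08g0136800, each on the strand opposite to its partner. The other is Os10g0552600 and Os10g0552700, 2787 bp apart on the minus strand of chromosome 10 with no gene between them. Os10g0552600 had 30, 42 and 13 counts at LE and 137, 97 and 429 at EE in *Oslec1-1*, with 0 in every NIP library, a log2 fold change of -3.30 ± 0.62 (SE, edgeR adjusted p = 0.00191). Of the other pairs, 2 had no gene between them, Os12g0486800 with Os12g0486900 and Os03g0309250 with Os03g0309300, and none of those 4 genes was called between the stages.

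Overlap with other genes could affect some of the counts, which was not tested. Of the 186 genes, 33 overlapped another gene, 32 of them on the opposite strand, and for 9 the partner had a mean of at least 10 counts in an *Oslec1-1* group. Without strand information, reads of a gene and its opposite-strand partner cannot be told apart. Os11g0471300 overlaps Os11g0471200, which had a mean of 849.7 counts in *Oslec1-1* and 13.3 in NIP at LE and 439.7 in *Oslec1-1* and 1.00 in NIP at EE. Os01g0862200 overlaps Os01g0862300, which was abundant in both genotypes, with means of 1691 in *Oslec1-1* and 1823 in NIP at LE and 1560 in *Oslec1-1* and 831 in NIP at EE.

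The genes directly beside the 186 were examined after the values had been seen. The 186 genes have 364 such neighbours that are not themselves among the 186. At LE, 30 of the 203 tested neighbours (14.8%) were higher in *Oslec1-1* than in NIP, whereas 7.53% of all other genes were higher, and 1 was lower (1.24% of all tested genes). At EE, 34 of 200 neighbours (17%) were higher, whereas 10.1% of all other genes were higher, and 5 were lower (3.92% of all tested genes). The share was 7 of 59 (11.9%) for neighbours within 2 kb or overlapping and 23 of 144 (16.0%) for those farther away at LE, and 9 of 59 (15.3%) and 25 of 141 (17.7%) at EE, so it was not higher among the nearer ones. These shares are given as a description, with no test.

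**Figure D5:**
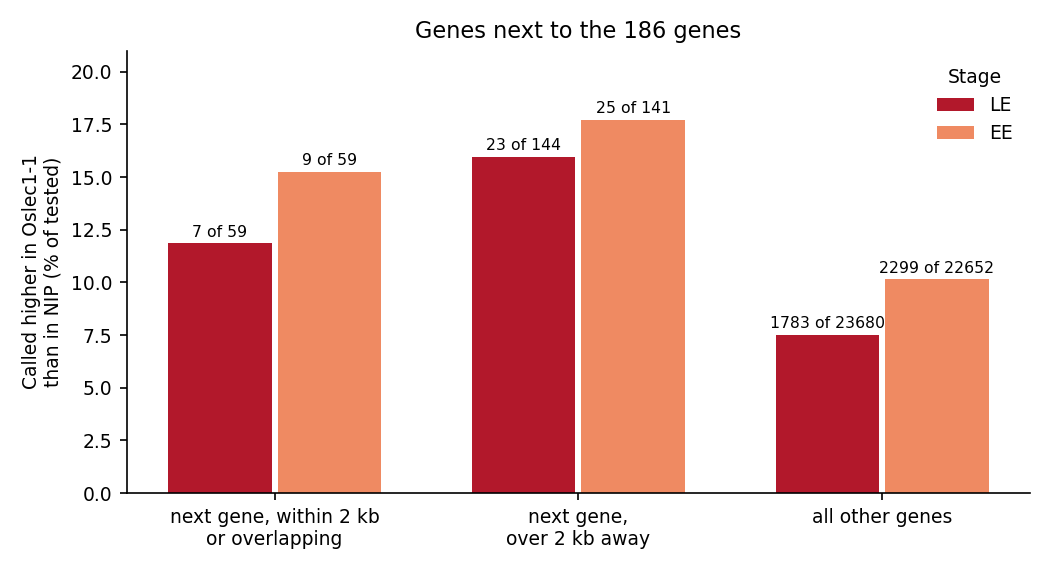
Share of tested genes called higher in *Oslec1-1* than in NIP by edgeR, for the genes directly beside the 186 genes by distance and for all other genes, at LE and EE. Bars start at 0 and carry the number called of the number tested; the neighbours stand at 11.9% to 17.7% and all other genes at 7.53% and 10.1%.

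FPKM values gave the same order of the genotypes, since for all 186 genes the lowest *Oslec1-1* FPKM exceeded the highest NIP FPKM. FPKM come from the same libraries as the counts by which the genes were chosen, so this order is not independent evidence. In FPKM, 53 genes stood at 0 in every NIP library. For some genes the 2 kinds of value differed in size. FPKM was more than 10 times the CPM per kb of span for 10 genes at LE and 8 at EE, against a median ratio of 1.10 at EE over the 186. The EE ratio was 32.6 for Os08g0136700, whose mean FPKM of 305 at EE exceeded the 260 of Os08g0136800 although its counts were far lower, so the level of one relative to the other is uncertain. Os10g0574700 had 15, 20 and 25 counts at LE and 10, 19 and 27 at EE in *Oslec1-1*, with at most 3 in any NIP library, while its FPKM lay between 3.58 and 8.72 in *Oslec1-1* and between 0.84 and 2.38 in NIP. It was one of 3 genes with a NIP value over 0.5 FPKM.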

How the data were processed

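The members and lists used here were chosen with earlier results of these data known. The authors trimmed reads with Trimmomatic 0.36, mapped them to IRGSP-1.0 with HISAT2 2.1.0 and deposited whole-number counts per gene without normalization, and the counting program is not given in the sources used here. They also deposited FPKM, TPM and read coverage from StringTie 1.3.4d. FPKM served for levels per length and for 1 alternative, while TPM and coverage were not used here. In the study, the authors tested counts with DESeq2.

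The 12 libraries were grouped by the sample records. Counts were tested with edgeR 4.0.16 in R 4.3.3 (filterByExpr, TMM, quasi-likelihood test, Benjamini-Hochberg adjustment) on the 6 libraries of each comparison, and calls needed both an adjusted p under 0.05 and a log2 fold change of 2 or more in either direction. CPM were scaled by TMM over all 12 libraries, except that the CPM limit of a gene without counts and the CPM per kb of span used unscaled library totals. Scaling by library size alone moved the median log2 fold change of all genes by 0.68 at EE, 0.10 at LE and 0.01 between the stages, so ratios between the genotypes at EE depend on the scaling. Ratios of counts have 95% exact counting intervals, and against a group at 0 they are bounds set at 3 counts over the group. No 2 replicates had counts that agreed within sampling noise (chi-square per gene of 5.82 to 33.4). p-values measure the spread between 3 replicates, described as biological.

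Genes were named if they were among the 10 with the highest mean CPM in *Oslec1-1*, the 6 with the largest log2 fold change in each direction between the stages, in a GO term or group of related terms with at least 3 members, next to a limit or in the largest group within 100 kb. The annotation families and cell type markers planned by description could not be applied, because the RefSeq table pairs none of the 186 identifiers with a description, and the study's GO lists took their place. Some of those lists are shortened in the copy used here. Promoter motifs, proteins and microRNA sequences were not analysed here. Alternatives were DESeq2 1.42.0, limma 3.58.1 on log2(FPKM + 1), RLE factors, library size only, at least 10 counts in every library, no filter, all 12 libraries in 1 fit, no limit on the fold change, the replicate number as a block, and each library left out. The test was tested on simulated data. Python 3.11.15 with pandas 2.3.3, numpy 2.4.6, scipy 1.17.1 and matplotlib 3.10.9 made the tables and figures.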

Additional observations from a re-analysis of the deposited data

How the results depend on the processing

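The number of genes that met the rule depends on its limits. It was 47 with 0 counts in each NIP library, 97 with at least 20 counts in each *Oslec1-1* library, 168 with counts scaled to the smallest library and 37 with an FPKM of 0 in NIP and at least 0.5 in *Oslec1-1*, of which 35 were among the 186. Leaving out a library gave 189 to 238 genes. The rule sets a limit in each library, so leaving one out can only keep or add genes, and a number below 186 was not possible. Between LE and EE in *Oslec1-1*, limma on log2 FPKM called 6 of the 186 higher and 11 lower, and 732 and 523 of all genes. An adjusted p without a limit on the fold change called 37 and 53 of the 186, and 7345 and 7130 of all genes. When 10 counts were required in every library, all calls numbered 804 higher and 664 lower, against 1519 and 1209. The non-member genes called higher in *Oslec1-1* at EE were then 3 for light harvesting and 4 for chitinase. With this requirement, genes under 10 counts in any library compared are not tested. Leaving out a library gave 9 to 15 higher and 17 to 23 lower among the 186, 1456 to 1764 and 1248 to 1360 among all genes, 12 to 13 and 21 to 23 light-harvesting and chitinase genes at EE, and 11 and 10 to 14 at LE. The neighbours called higher ran between 28 and 44 at LE and between 33 and 40 at EE over the libraries left out. At LE, DESeq2 called 46 neighbours, the fit without a filter 48 and limma 13, and with at least 10 counts in every library 10 were called at LE and 11 at EE. DESeq2 called 10 higher and 20 lower of the 186, as edgeR did. No called result changed direction in the alternatives run. The log2 fold changes of LE over EE of 4 named genes that were not called took both signs when a library was left out: Os01g0356951 (-0.24 to 1.23), Os01g0123900 (-0.38 to 0.04), Os09g0439500 (-0.18 to 0.24) and Os12g0291100 (-0.28 to 0.19, and 0.99 with limma). The limma values of Os04g0570500 (1.99), Os01g0359600 (1.23), Os02g0210100 (-1.16) and Os01g0358100 (-1.92) fell short of the limit. The cause of these shifts was not tested unless named.

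The replicate numbers were not taken to pair the samples, since not every correlation was over 0.1. The correlations of same-numbered deviations between LE and EE in *Oslec1-1* were 0.12, 0.04 and 0.03. Between *Oslec1-1* and NIP they were 0.47, -0.04 and 0.26 at LE and 0.13, -0.03 and -0.07 at EE. With the replicate number as a block, 12 of the 186 were higher and 19 lower at LE, and 1532 and 1215 of all genes, and Os09g0537700 reached 2.01. At 16113922 to 27213238 counts per library, silence and a low level in NIP cannot be told apart.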
